A study of Homo sapiens with 6 samples.

Results

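The genes of the nuclear factor κB (NF-κB) subunits and of their feedback inhibitors were followed in NCI-H660 cells treated with pyrvinium pamoate (PP) or PBS. The group was chosen by symbol and holds 10 of the 17177 genes of the deposited table. The 5 subunit genes are *NFKB1*, *NFKB2*, *RELA*, *RELB* and *REL*, and the inhibitor genes are *NFKBIA*, *NFKBIB*, *NFKBIE*, *TNFAIP3* and *BIRC3*. NCI-H660 is an established line of neuroendocrine prostate cancer (NEPC) cells, labelled wild type in both groups. RNA-seq libraries were made from 3 samples with PBS and 3 with PP, all taken on day 3, and PP is an anthelmintic that the study used as an inhibitor of the RNA-binding protein ELAVL3. The study calls the samples of a group independent, but what was repeated (culture, treatment or extraction) was not found in the sources used here, so P values measure the spread between these libraries. The concentration of PP was not found either.

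NF-κB is a family of dimeric transcription factors built from the products of the 5 subunit genes. In resting cells the IκB proteins, encoded by *NFKBIA*, *NFKBIB* and *NFKBIE*, hold the dimers in the cytoplasm, and a kinase complex marks IκB for degradation when a receptor of the TNF, interleukin or Toll-like type is engaged. Several of the genes that the released dimers switch on encode inhibitors of the same route, among them *NFKBIA* and *TNFAIP3*, and this gives the pathway its negative feedback. *RELB* and *NFKB2* serve a slower, noncanonical branch. Apart from the switching on of genes, these steps are controlled mainly on proteins, and RNA-seq measures only the amount of mRNA.

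The values are FPKM, fragments scaled to the length of the gene and to the size of the library. Levels of different genes can be set side by side only as far as the gene lengths used suit the transcripts present. Those lengths were not given, so orders, shares and sums over genes are approximate. Whole counts recovered from the FPKM steps came to between 29064253 and 32481171 per library, a difference of 11.8%. The labelled cell type was checked against markers. All 9 neuroendocrine markers were detected, and their summed FPKM was 856 to 865 in the PBS libraries and 473 to 487 in the PP libraries. Leukocytes express many NF-κB genes, but 7 of the 9 leukocyte markers had a mean FPKM under 1, *CD3D* was at 0 in all 6 libraries and *PTPRC* had at most 4 counts. The mean FPKM of *CD14* was 1.44 with PBS and 1.47 with PP, and that of *CD68* was 1.41 and 1.09. The summed FPKM of the leukocyte list was 3 to 3.58 with PBS and 2.25 to 3.12 with PP. Of the 8 stromal and endothelial markers, 6 were under 1, and the summed FPKM was 8.37 to 9.17 with PBS and 7.48 to 8.18 with PP. Above 1 were *COL1A1*, with a mean of 3.3 with PBS and 4.16 with PP, and *CDH5*, with 3.6 and 2.52.

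The promoter sequences of the members were read first, because the NF-κB dimers are known to act on several of these genes. RefSeq windows of 300 bases, 250 before and 50 after an annotated transcription start (GRCh38.p14), were found for 8 of the 10 members, with 13 windows in all. *RELB* and *NFKBIE* had none in the table. The κB consensus, a motif of 10 bases, was searched on both strands, and overlapping or adjoining matches were counted as 1 site. A match was present in 8 of the 13 windows and for 7 of the 8 members, all but *RELA*. Over the whole table, 11.3% of 35116 windows and 13.3% of 27305 genes held a match. A match is a description of letters and not a measured binding site, and binding was not measured in these samples. The 2 IκB genes that moved in opposite directions with PP are shown as whole windows, *NFKBIA* at chr14:35404700-35404999 on the minus strand and *NFKBIB* at chr19:38899719-38900018 on the plus strand, each read 5′ to 3′ along the gene with the match in capitals.
NFKBIA: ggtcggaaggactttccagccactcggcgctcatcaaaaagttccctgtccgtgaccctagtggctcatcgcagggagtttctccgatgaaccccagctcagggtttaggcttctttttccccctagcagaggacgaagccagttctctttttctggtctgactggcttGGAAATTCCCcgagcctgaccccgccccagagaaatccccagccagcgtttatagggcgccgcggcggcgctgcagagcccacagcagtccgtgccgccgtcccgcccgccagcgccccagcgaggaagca
NFKBIB: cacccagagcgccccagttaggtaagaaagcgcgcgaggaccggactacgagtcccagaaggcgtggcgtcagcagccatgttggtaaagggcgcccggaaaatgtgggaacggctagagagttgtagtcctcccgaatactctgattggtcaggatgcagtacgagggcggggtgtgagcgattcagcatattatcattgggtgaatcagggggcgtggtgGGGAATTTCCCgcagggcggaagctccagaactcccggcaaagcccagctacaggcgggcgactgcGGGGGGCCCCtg

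Both windows carry a κB match before the start. That of *NFKBIA* covers bases 170 to 179 of its window and reads as the consensus on the opposite strand. That of *NFKBIB* covers bases 223 to 233 and matches on both strands, and a second match, made only of G and C, lies after the start at bases 289 to 298. The same run of letters, GGGAATTTCC, is found in the *NFKBIB* match and in that of *NFKB1*, and its reverse complement is found in the matches of *NFKBIA* and *REL*. The window of another annotated start of *NFKBIB*, further upstream, had no match. The stretches around the matches of the other members are shown for comparison, with matches in capitals, at chr4:102501290-102501339 (*NFKB1*), chr10:102394451-102394529 and chr10:102395509-102395713 (*NFKB2*), chr2:60881507-60881557 (*REL*), chr6:137867172-137867233 (*TNFAIP3*) and chr11:102317265-102317378 (*BIRC3*), all on the plus strand.
NFKB1: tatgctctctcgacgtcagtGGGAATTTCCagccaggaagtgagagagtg
NFKB2, start 2: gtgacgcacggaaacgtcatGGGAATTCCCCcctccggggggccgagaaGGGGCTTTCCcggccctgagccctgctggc
NFKB2, start 3: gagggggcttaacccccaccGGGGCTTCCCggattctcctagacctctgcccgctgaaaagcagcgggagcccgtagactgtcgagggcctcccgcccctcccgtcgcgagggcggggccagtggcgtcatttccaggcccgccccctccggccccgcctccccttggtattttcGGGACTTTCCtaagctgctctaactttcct
REL: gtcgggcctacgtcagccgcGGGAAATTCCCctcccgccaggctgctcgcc
TNFAIP3: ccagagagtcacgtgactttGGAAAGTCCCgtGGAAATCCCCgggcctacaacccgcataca
BIRC3: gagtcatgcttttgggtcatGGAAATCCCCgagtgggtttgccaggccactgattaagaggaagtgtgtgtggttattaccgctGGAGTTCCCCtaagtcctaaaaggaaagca

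**Figure D1:**
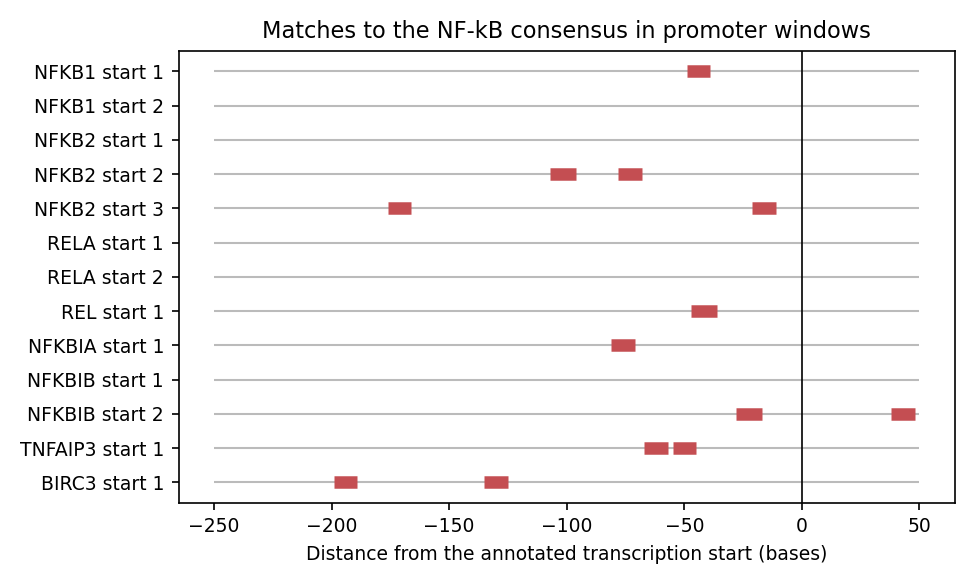
Positions of matches to the κB consensus (red) in the 13 promoter windows of 8 members, by distance in bases from the annotated transcription start. Matches are present in 8 windows, and neither window of RELA has one.

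Members with a match in these windows included genes that rose, a gene that fell and genes that did not pass the test. In the list of 60 known NF-κB targets described further on, 46 had a window and 24 of these held a match.

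With PP, 4 of the 10 members rose, 1 fell and 5 did not pass the test (adjusted p under 0.05, limma with Benjamini-Hochberg adjustment over the 11726 genes whose mean FPKM reached 1). All 10 members were above that level and were tested. The background was broad, since 38.1% of all tested genes were higher and 34.4% were lower with PP by the same rule. The members' counts are to be read against those shares. A count of 4 higher of 10 is near the background. The 1 lower of 10 is a smaller share, but the count was 2 without PBS replicate 1. No difference from the background was tested for the members. The median log2 fold change of the members was 0.11, against 0.022 over all tested genes, and the median size of the change, without its sign, was 0.20 against 0.27. The 3 PP libraries lay above the 3 PBS libraries in 4 members and below them in 2, and overlapped them in 4. Over all tested genes 39.5% lay above and 35.5% below. A stricter cutoff, taken from the study's methods, asks for P under 0.001 together with a log2 difference of more than 1 either way. *NFKBIB* alone among the members passed it, as did 5.18% of all tested genes.

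**Figure D2:**
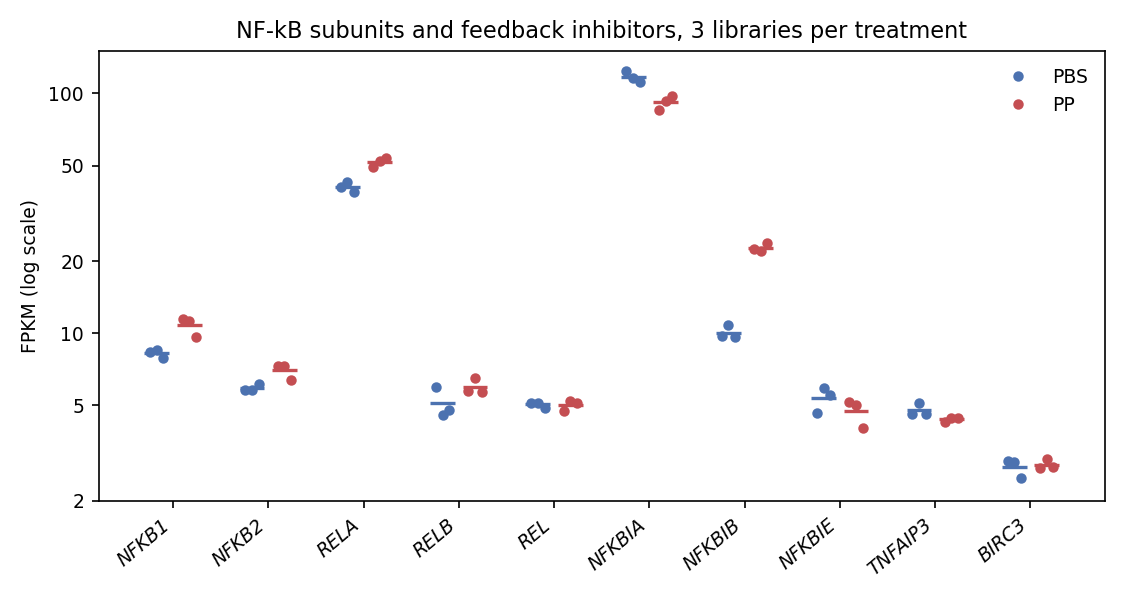
FPKM (log axis) of the 10 members in each library, with PBS in blue and PP in red, points for libraries and lines for the mean of 3. NFKBIB stands between 9.69 and 10.8 with PBS and between 22.1 and 23.7 with PP, and NFKBIA is the highest member in every library.

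Among the subunits, 3 of 5 rose and none fell, where 38.1% of all tested genes were higher and 34.4% lower. A difference from these shares was not tested. *RELA* encodes p65, the subunit with the strongest activation domain of the canonical dimers, and it was the most abundant subunit mRNA. Its FPKM was 40.6, 42.9 and 38.7 in the PBS libraries and 49.2, 52.3 and 53.7 in the PP libraries. All PP values lay above all PBS values, and the means were 40.7 ± 2.09 and 51.7 ± 2.3 (SD, n = 3), a 1.27-fold increase. Log2 fold changes here are differences of log2(FPKM + 1), a scale that makes the change of weakly expressed genes look smaller, and that of *RELA* was 0.34 with a standard error of 0.05 (limma, adjusted p = 0.000105).

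*NFKB1* encodes the p105 precursor, from which the DNA-binding p50 subunit is made. It had 8.33, 8.52 and 7.9 FPKM with PBS and 11.5, 11.2 and 9.65 with PP. The lowest PP library was still above the highest PBS library, and the log2 fold change of 0.34 (standard error 0.07) had an adjusted p of 0.000806 from limma. *NFKB2* encodes p100, the precursor of p52, which also acts as an IκB-like inhibitor. It had 5.8, 5.77 and 6.15 FPKM with PBS and 7.33, 7.32 and 6.36 with PP. The third PP library lay close to the PBS range for this gene, and the log2 fold change was 0.21 with a standard error of 0.06 (limma, adjusted p = 0.0114).

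*RELB* encodes the partner of p52 in the noncanonical dimer. Its FPKM was 5.94, 4.58 and 4.79 with PBS and 5.72, 6.48 and 5.69 with PP. The groups overlapped because the first PBS library was higher than 2 of the PP libraries, and the log2 fold change of 0.20 had a 95% confidence interval of 0.00 to 0.39 (adjusted p = 0.0616 from limma). Without PBS replicate 1 it was 0.29 and past the threshold (adjusted p = 0.00479 from limma; 0.00479 to 0.211 over all 14 alternatives). *REL*, which encodes c-Rel, a subunit best known from lymphocytes, had 5.12, 5.14 and 4.88 FPKM with PBS and 4.72, 5.22 and 5.13 with PP. The groups overlapped throughout. The log2 fold change of *REL* was -0.01, with a 95% confidence interval of -0.13 to 0.12 (limma, adjusted p = 0.925).

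The shares of the subunit pool follow from these levels and are given as a description. Of the summed FPKM of the 5 subunit genes, *RELA* made up 62.6% ± 1.29 with PBS and 64.3% ± 2.12 with PP (SD, n = 3). The share of *NFKB1* was 12.7% ± 0.0464 and 13.4% ± 1.34. The share of *REL* was 7.76% ± 0.0681 with PBS and 6.24% ± 0.189 with PP, and its groups did not overlap, while its own FPKM overlapped. The summed FPKM of the noncanonical genes *NFKB2* and *RELB*, divided by that of *NFKB1*, *RELA* and *REL*, was 0.217, 0.183 and 0.212 with PBS and 0.199, 0.201 and 0.176 with PP. These ratios overlapped (log2 difference -0.09, exact permutation test over libraries, two-sided p = 0.5).

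The IκB genes went different ways, with 1 higher, 1 lower and 1 not past the threshold. *NFKBIA* encodes IκBα, which is degraded fastest on stimulation and is itself a classical NF-κB target. Its FPKM was 124, 116 and 112 with PBS and 85.7, 93.3 and 97.9 with PP. Every PP library was below every PBS library, and the mean fell from 117 ± 6.14 to 92.3 ± 6.14 (SD, n = 3), to 0.786 of the PBS level. The log2 fold change of *NFKBIA* was -0.35 with a standard error of 0.05 (limma, adjusted p = 0.000186), and ranged from -0.39 to -0.29 over the 14 alternatives.

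*NFKBIB* encodes IκBβ, a related inhibitor that binds p65 and c-Rel dimers and is known for slower turnover. Its FPKM was 9.71, 10.8 and 9.69 with PBS and 22.4, 22.1 and 23.7 with PP. The groups were far apart, with means of 10.1 ± 0.632 and 22.8 ± 0.847 (SD, n = 3), a 2.26-fold increase that rested on 439 to 462 counts per PBS library and 977 to 1135 per PP library. The log2 fold change of *NFKBIB* was 1.10 with a standard error of 0.05 (limma, adjusted p = 3.6e-08), and by size it ranked 462 of the 11726 tested genes. The 5′ end of *NFKBIB* overlaps that of *SIRT2*, on the opposite strand, by 163 bases in the GENCODE annotation mapped to hg19. *SIRT2* had 17 to 18.7 FPKM with PBS and 18.8 to 21.9 with PP, a 1.15-fold difference, and whether the counting used strand is not given in the sources used here.

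*NFKBIE* encodes IκBε. It had 4.66, 5.91 and 5.52 FPKM with PBS and 5.17, 5.03 and 4.01 with PP. The groups overlapped, and the log2 fold change was -0.15 with an interval of -0.36 to 0.06 (adjusted p = 0.178 from limma). Without PBS replicate 1 it was -0.23 and just past the threshold (adjusted p = 0.0489 from limma; 0.0489 to 0.583 over 14 alternatives). This gene had the fewest recovered counts of the members, 154 to 203 per library, and these are the smallest whole numbers that give the FPKM values.

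**Figure D3:**
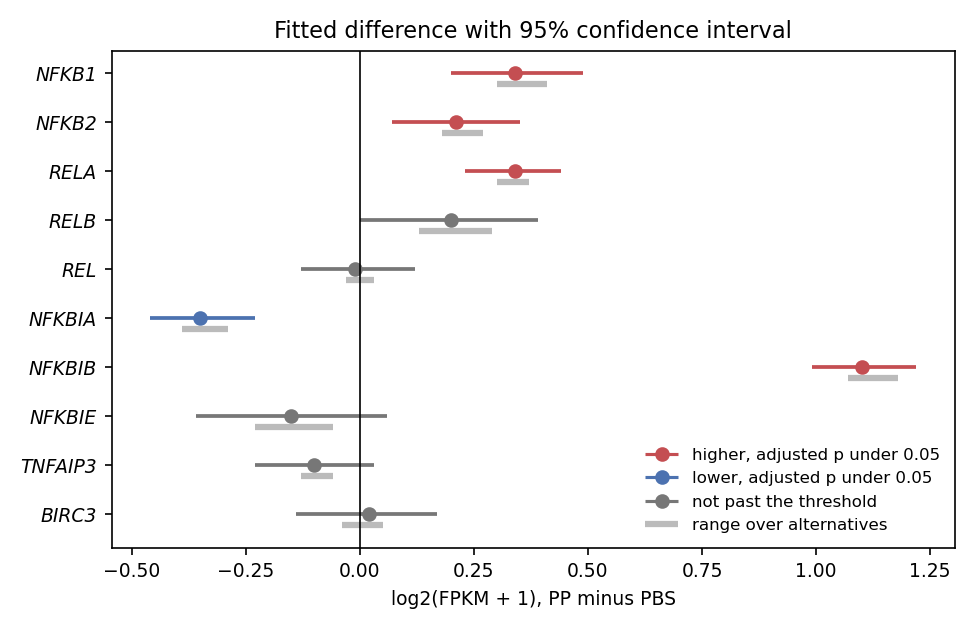
Fitted difference of each member on the log2(FPKM + 1) scale, PP minus PBS, with its 95% confidence interval from limma (line) and the range over the alternatives (grey bar). NFKBIB is at 1.10, NFKBIA at -0.35, and the intervals of REL, NFKBIE, TNFAIP3 and BIRC3 cover 0.

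The IκB pool therefore differed in make-up between the treatments. *NFKBIA* accounted for 89.6%, 87.4% and 88.1% of the summed IκB FPKM in the PBS libraries and for 75.7%, 77.4% and 77.9% in the PP libraries. *NFKBIB* accounted for 7.58% ± 0.578 with PBS and 19% ± 0.701 with PP (SD, n = 3), and *NFKBIE* for 4.05% ± 0.602 and 3.98% ± 0.706. The level of *NFKBIA* was 11.7 ± 1.05 times that of *NFKBIB* with PBS and 4.05 ± 0.202 times with PP. These shares follow from the levels given above and are a description.

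The ratio of summed IκB FPKM to summed subunit FPKM was lower with PP, with *NFKB1* and *NFKB2* counted as subunits only. The summed IκB FPKM was 133 ± 5.54 with PBS and 120 ± 6.19 with PP, and the summed subunit FPKM was 65 ± 2.35 and 80.5 ± 2.03 (SD, n = 3). Their ratio was 2.11, 1.98 and 2.05 in the PBS libraries and 1.44, 1.46 and 1.56 in the PP libraries. No PP library reached the PBS range. The difference was -0.46 on the log2 scale (exact permutation test over libraries, two-sided p = 0.1, the smallest that 3 libraries against 3 can give). The ratio is taken within a library, so it does not depend on how libraries were scaled to each other, and it weights each gene by its level, so that *NFKBIA* and *RELA* carry most of it. With the mean of log2(FPKM + 1) values in place of sums, so that each gene counts alike, the difference was -0.01.

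**Figure D4:**
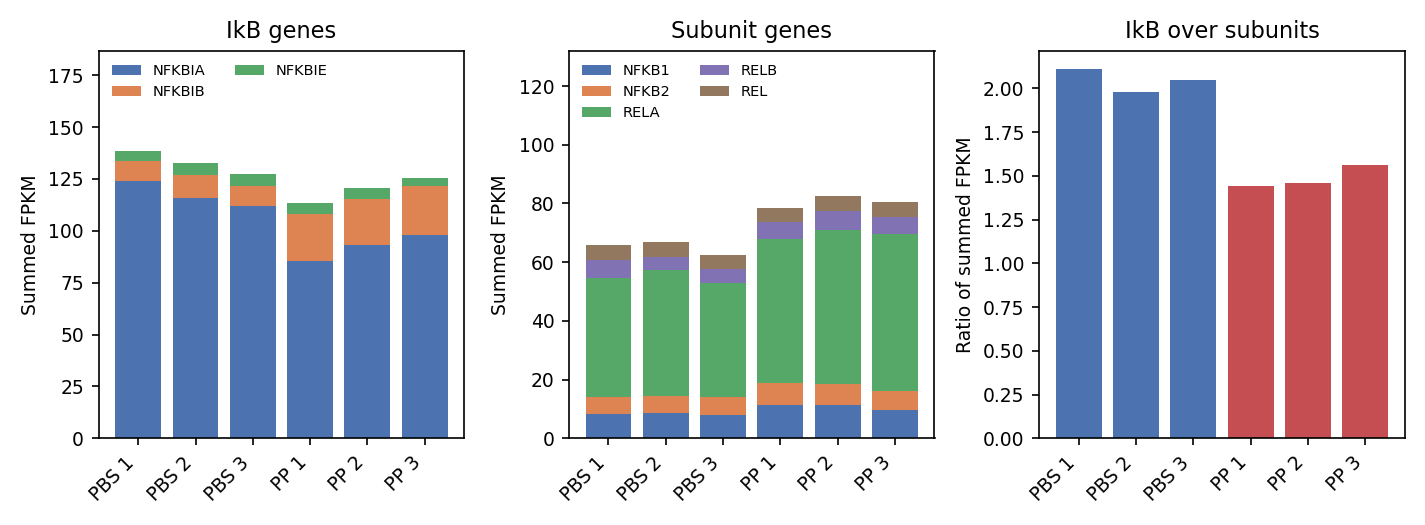
Summed FPKM of the 3 IκB genes and of the 5 subunit genes in each library, stacked by gene, and their ratio (blue for PBS, red for PP). The ratio is 1.98 to 2.11 with PBS and 1.44 to 1.56 with PP.

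The remaining feedback genes encode enzymes of ubiquitin signalling. *TNFAIP3*, which removes activating ubiquitin chains from signalling proteins upstream of the IκB kinase, had 4.6, 5.11 and 4.62 FPKM with PBS and 4.26, 4.42 and 4.43 with PP. The PP libraries lay just below the PBS libraries, but the log2 fold change of -0.10, with an interval of -0.23 to 0.03, was not past the threshold (adjusted p = 0.131 from limma). *BIRC3*, a ubiquitin ligase of TNF receptor complexes that also limits the noncanonical kinase, was the lowest member. It had 2.93, 2.91 and 2.49 FPKM with PBS and 2.73, 2.98 and 2.76 with PP, and its log2 fold change was 0.02 with an interval of -0.14 to 0.17. Its close relative *BIRC2*, which lies beside it on chromosome 11, had 14.9, 14.4 and 15.1 FPKM with PBS and 18, 17.4 and 19.9 with PP (log2 fold change 0.30, adjusted p = 0.000521 from limma). The genes are alike in sequence, and reads shared by both would make either value uncertain.

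By level, the order of the members was *NFKBIA*, *RELA*, *NFKBIB*, *NFKB1* and *NFKB2* with both treatments, and the libraries of each of the first 4 stood clear of those of the next gene. Below *NFKB1*, the libraries of neighbouring genes overlapped among *NFKB2*, *NFKBIE*, *RELB*, *REL* and *TNFAIP3* with PBS. With PP they overlapped between *NFKB2* and *RELB*, between *REL* and *NFKBIE*, and between *NFKBIE* and *TNFAIP3*, but *RELB* stood above *REL*. *BIRC3* was last with both treatments and apart from the others.

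The other genes of the pathway were described from 6 lists, with the members left out of all of them. Their counts, too, stand against a background of 38.1% higher and 34.4% lower among all tested genes, and no difference from it was tested. In the list of other inhibitors and deubiquitinases, 25 of 30 genes were tested, 10 rose and 6 fell, and the median log2 fold change was 0.13. The largest increases were those of *NFKBIL1*, an IκB-like gene (0.76), *CYLD*, a deubiquitinase of the same signalling proteins as *TNFAIP3* (0.67, and up to 1.01 over the alternatives), and *OTUD7B*, another deubiquitinase (0.65). The largest decreases were those of *ZC3H12A*, a ribonuclease that destroys inflammatory mRNA (-0.69), *SOCS3*, an inhibitor of cytokine receptors (-0.64), and *NFKBID*, a nuclear IκB (-0.37). The nuclear IκB genes also went different ways. Of those kept in the list of nuclear cofactors, *NFKBIZ* rose, at 7.27, 7.9 and 7.1 FPKM with PBS and 10.3, 10.1 and 9.09 with PP (log2 fold change 0.36, adjusted p = 0.000344 from limma) and *BCL3* fell (-0.27, adjusted p = 0.0043 from limma, and -0.48 to -0.24 over the alternatives).

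Of the 24 kinases and ubiquitin ligases of activation, 23 were tested, 12 rose and 6 fell, with a median of 0.13 (all tested genes, 38.1% and 34.4%). *RBCK1* (0.94) and *SHARPIN* (0.45) were among the 3 largest increases, with *TAB2*, an adaptor of the kinase TAK1, at 0.51. *RBCK1*, *SHARPIN* and *RNF31* encode the complex that makes linear ubiquitin chains, and all 3 rose (*RNF31* by 0.15). *RBCK1* had 17.9, 20.6 and 18.9 FPKM with PBS and 39.1, 38.5 and 35.2 with PP, so it was 1.96 times higher. *MAP3K8*, a kinase that is held by the *NFKB1* precursor protein, fell from 7.02, 7.21 and 7.11 FPKM to 2.96, 3.02 and 3.09 (log2 fold change -1.01, adjusted p = 5.89e-08 from limma). The parts of the ligase that ubiquitinates IκB went different ways. *SKP1* and *RBX1* fell by 0.49 and 0.48 on the log2 scale, *CUL1* rose by 0.21 and *FBXW11* by 0.20, and *BTRC* was at 0.03 and did not pass the test. Of the 3 IκB kinase subunits, *CHUK* rose by 0.23 and *IKBKB* was at -0.14 (adjusted p = 0.0494 from limma, and up to 0.204 over the alternatives). *IKBKG*, at 0.07, did not pass the test, and its log2 fold change was -0.17 to 0.19 over the alternatives. It had 2.49, 2.59 and 3.09 FPKM with PBS and 4.42, 2.33 and 2.27 with PP. *MAP3K14*, the noncanonical kinase, rose by 0.39.

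Among 38 receptors and adaptors in the table, 25 were tested, 10 rose and 9 fell, with a median of 0.10. *TNFRSF12A*, the receptor of the cytokine TWEAK, rose from 18.2, 18.6 and 20.9 FPKM to 49.3, 46.2 and 42.5 (log2 fold change 1.21). The adaptors *BCL10* (0.67) and *TRAF6* (0.42) also rose. The receptors split, since *TNFRSF1B*, the second TNF receptor, fell from 4.87, 4.97 and 4.31 FPKM to 1.2, 1.27 and 1.1 (log2 fold change -1.38, adjusted p = 5.29e-08 from limma), and *TNFRSF25* fell by 0.98. *MYD88*, the adaptor of Toll-like and interleukin receptors, fell by 0.53. *TNFRSF1A*, the main TNF receptor, was at 0.21 (adjusted p = 0.0465 from limma, and up to 0.19 over the alternatives).

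Ligands were mostly near the detection limit. The table held 14, of which 9 had a mean FPKM under 1 and were not tested, and of the 5 tested 1 rose and 2 fell. *TNFSF11*, which encodes RANKL, rose from 2.95, 2.22 and 2.38 FPKM to 5.62, 5.71 and 5.63 (log2 fold change 0.93). *LTB*, a lymphotoxin, fell from 3.9, 4.16 and 2.83 FPKM to 0.365, 0.445 and 0.649 (log2 fold change -1.63, and -2.87 to -1.55 over the alternatives), with only 10 counts in the lowest library. *TNFSF13* fell by 0.88, and its log2 fold change was -1.47 to -0.80 over the alternatives. *TNF* itself was below the level for testing, at 0.789, 1.16 and 1.09 FPKM with PBS and 0.388, 0.493 and 0.509 with PP. *IL1B* had at most 4 counts in any library.

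Of the nuclear cofactors, all 16 were tested, 9 rose and 5 fell, with a median of 0.19. *SIRT1*, a deacetylase of p65, rose by 0.72 and *NKRF*, a repressor of NF-κB targets, by 0.50. *HDAC1*, a histone deacetylase, fell by 0.54.

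The list of targets held 60 genes that NF-κB is known to switch on, of which 58 were in the table and 37 were tested. With PP 12 rose and 18 fell, where the shares of all tested genes were 38.1% and 34.4%, and the median log2 fold change was -0.11, against 0.022 over all tested genes. The largest increases were those of *GADD45B*, a stress gene (1.79), *KLF6*, a transcription factor (1.44), and *LCN2*, a secreted iron carrier (1.38). *GADD45B* had 4.95, 4.38 and 5.18 FPKM with PBS and 19.8, 20.6 and 17.2 with PP, and *LCN2* had 99.8, 94.5 and 87.5 against 235, 259 and 245. The largest decreases on the log2(FPKM + 1) scale were those of *SAA1*, an acute-phase protein (-2.17), *CX3CL1*, a chemokine (-1.38), and *PLAU*, the urokinase protease (-1.19). *CX3CL1* fell from 2.7, 2.03 and 2.44 FPKM to 0.397, 0.252 and 0.251. As a ratio of FPKM it fell further than *SAA1* (to 0.125 against 0.149), and over the alternatives its log2 fold change was -3.01 to -1.31, against -2.73 to -2.12 for *SAA1*. *SAA1* fell from 10.5, 11 and 10.2 FPKM to 1.41, 1.43 and 1.9, and *PLAU* from 128, 127 and 130 to 56.8, 56.5 and 54.1.

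Of the chemokines, *CXCL8* rose by 0.27 (adjusted p = 0.0003 from limma) and *CXCL2* fell by 0.26 (adjusted p = 0.00328 from limma), each with groups that did not overlap. The adhesion gene *ICAM1* fell from 22.7, 21.5 and 22.9 FPKM to 15.3, 15.2 and 14.5 (log2 fold change -0.55). The activation marker *CD83* fell by 1.05. In the target list, the antigen presentation genes *TAP1*, *HLA-B* and *PSMB9* fell by 0.66, 0.33 and 0.20. For *PSMB9* the adjusted p was 0.0121 from limma, and up to 0.0504 over the alternatives. Among all tested genes 34.4% were lower, and antigen presentation genes outside this list were not described. *IRF1*, an interferon-response factor, rose by 0.93. Among the survival genes, *XIAP* (0.34) and *CFLAR* (0.21) rose and *BCL2L1* (-0.31) fell. The cytokine *IL6* was below the level for testing, at 0.59, 0.704 and 0.679 FPKM with PBS and 0.0192, 0.039 and 0.054 with PP, with at most 36 counts in a library. Many of these genes also answer to other stress and cytokine pathways, and the part of NF-κB in their change was not tested.

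**Figure D5:**
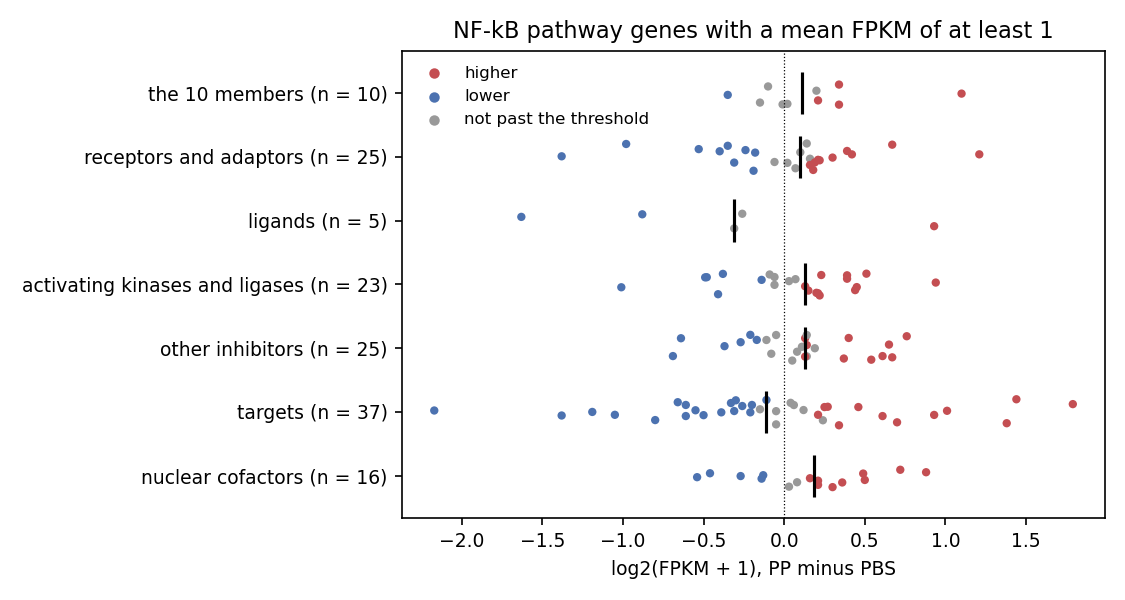
Log2 fold change (PP minus PBS, log2(FPKM + 1) scale) of each tested gene of the members and the 6 pathway lists, coloured by call, with a line at the median. The median is 0.11 for the members and -0.11 for the targets.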

How the data were processed

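RNA-seq libraries of NCI-H660 cells (TruSeq Stranded mRNA kit, paired-end reads, HiSeq X per the labels) were taken as deposited, as the FPKM of 17177 gene symbols in 6 libraries. On how the authors made these FPKM, the sources differ: the submitters' processing notes name fastp, HISAT2, HTSeq and GRCh38, and the methods name Bowtie, RSEM, Cufflinks, HTSeq-count and hg19. The labels and the legends give 3 samples per group and the methods 2, and all 3 were used. Versions and the gene lengths used are not given in the sources used here.

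The FPKM values of each gene were whole multiples of a step, and counts were recovered as the smallest whole numbers within 0.01 of a count, so a factor shared by all 6 libraries would be missed. Depth per library is the sum of these counts. Genes whose mean FPKM reached 1 were fitted as log2(FPKM + 1) with limma 3.58.1 in R 4.3.3 (eBayes with trend), and P values were adjusted by Benjamini-Hochberg over all 11726 genes. Ratios of summed FPKM were compared by exact permutation tests (scipy 1.17.1, Python 3.11.15). The fit and the recovery were run on simulated data in which far fewer genes changed than were called here. That simulation therefore does not test the fit under a change as broad as this one.

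The members and lists were chosen with earlier results of these data known. In each pathway list the up to 3 highest and 3 lowest log2 fold changes past the threshold were named by rule, and the other genes named (*BIRC2*, *SIRT2*, *NFKBIZ*, *RNF31*, *CHUK*, *IKBKB*, *IKBKG*, *MAP3K14*, *CUL1*, *FBXW11*, *BTRC*, *TNFRSF1A*, *TNF*, *IL1B*, *IL6*, *CXCL8*, *CXCL2*, *ICAM1*, *CD83*, *TAP1*, *HLA-B*, *PSMB9*, *IRF1*, *XIAP*, *CFLAR* and *BCL2L1*) were chosen after their values were seen. Some genes that the rule names are not reported here. Promoter sequences and coordinates come from RefSeq (GRCh38.p14). Alternatives varied the pseudocount, filter, scaling, eBayes trend, replicate block, limma-voom on recovered counts and each library left out.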

Additional observations from a re-analysis of the deposited data

How the results depend on the processing

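The counts of 4 members higher and 1 lower were the same under the 8 alternatives that kept all libraries, and with 1 replicate left out they were 4 to 5 higher and 1 to 2 lower. Without PBS replicate 1, *RELB* (0.29) and *NFKBIE* (-0.23) passed the threshold. The log2 fold changes of *REL* (-0.03 to 0.03) and *BIRC3* (-0.04 to 0.05) changed sign with a library left out. With a mean FPKM of at least 5, which leaves fewer genes, 6 receptors and adaptors were higher and 3 lower, against 10 and 9, and *TNFAIP3* and *BIRC3* could not be tested. With no filter, which adds genes, 2 ligands were higher and 4 lower, against 1 and 2. The number of nuclear cofactors that were lower was 3 to 5 with 1 replicate left out, with 3 without PBS replicate 1.

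Equal replicate numbers were not taken as pairs, since deviations from the group means correlated at -0.211, -0.014 and -0.127 for numbers 1, 2 and 3. With the replicate block, 4 members were higher and 1 lower as before, and the paired difference of the log2 ratio of IκB to subunit FPKM was -0.46 (exact sign-flip test, p = 0.25, the smallest that 3 pairs can give). That ratio difference was -0.49 to -0.44 with 1 library left out, and -0.01 with each gene weighted alike. The noncanonical to canonical one was -0.16 to -0.02 with 1 library left out. With median-ratio scaling the median log2 fold change of all genes was 0.00139, against 0.0219.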
